A study of Drosophila melanogaster with 6 samples.

Results

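The 8 genes described here encode the PIWI Argonautes of Drosophila melanogaster (piwi, aub and AGO3) and proteins that make or load their guide RNAs (zuc, armi, Hen1, squ and shu). They were chosen by name among 13690 genes measured in ovaries, and all 8 were found. Together they had 12 transcript entries. Of these genes, zuc, Hen1 and AGO3 are listed under older gene numbers in the deposited tables and were recognised by RefSeq accession. No member stood at the floor of 1 on any array, and no filter on low values was applied.

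Total ovary RNA was hybridised to 6 Affymetrix tiling arrays, with 3 in the uap56 group and 3 in the vasa group. The uap56 group is named for Hel25E, the gene of the DEAD-box RNA helicase UAP56, and the vasa group for vas, the gene of a germline helicase of the same family. The sources used here do not give alleles, genetic background or fly age. All flies had cornmeal food and yeast paste. No unmutated control enters the comparison, and a difference cannot be assigned to one of the groups. The labels do not say whether the 3 arrays of a group came from separate animals, so p-values measure the spread between these arrays, which may be technical.

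Piwi-interacting RNAs are short RNAs that guide PIWI-clade Argonautes to transposon transcripts. In the fly ovary, Piwi acts in the nuclei of germline and follicle cells, where it directs transcriptional silencing. Aub and AGO3 act in the germline cytoplasm, where they cut transposon and precursor transcripts in turn and so amplify the pool in nuage, the perinuclear material in which Vasa also lies. Zuc, an endonuclease on mitochondria, cuts precursors into consecutive piRNAs, with the help of the RNA helicase Armi. Hen1 then methylates their 3′ ends.

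Signals are linear intensities, summarised per transcript and normalized by the authors, and differences are log2 values of uap56 minus vasa. Intensities of different genes come from different probes and are not compared with each other. The vas signal was 2045, 1686 and 1364 on the uap56 arrays and 267, 242 and 383 on the vasa arrays, lower on every array labelled vasa. Hel25E was 1617, 1598 and 1042 in uap56 and 1799.7, 1416 and 1616 in vasa, with overlapping arrays (log2 difference -0.20, adjusted p = 0.642 in limma), so its level gives no check of the uap56 label. Array medians lay between 162.6 and 183.6, and Pearson's r across transcripts was 0.898 to 0.922 within groups and 0.888 to 0.904 between them.

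Of the 8 genes, piwi was lower in uap56, while Hen1 and squ were higher, and the other 5 did not pass the test. These 3 of 8 calls, at an adjusted p of 0.05 in limma with an intensity trend and robust hyperparameters, compare with 3.83% of all genes and 7.10% of the genes above the median intensity. The groups' arrays did not overlap for 7 of the 8 genes, with vasa higher for 5 and uap56 for 2. Over all genes the arrays did not overlap for 23.5%. Among the genes above the median intensity, which include all of the 8 but zuc, the share was 33.5%, with 12.8% higher in vasa and 20.7% higher in uap56. With a single variance prior for all genes, limma called 2 genes in all (0.0146%), and neither these 3 nor any other gene named below was among them. Of the 6 fits that left out 1 array, piwi passed in 1 and Hen1 and squ in 0.

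The Argonaute genes come first. The piwi signal was 514, 373 and 339.9 on the 3 uap56 arrays and 939, 724 and 810.4 on the 3 vasa arrays. Each vasa array was higher than each uap56 array, and the lowest vasa value stood well above the highest uap56 value. The means were 409 ± 92.4 in uap56 and 824 ± 108 in vasa (SD, n = 3 each), a 2.04-fold difference. The log2 difference was -1.03 ± 0.19 (SE), with a 95% interval of -1.46 to -0.59 and an adjusted p of 0.0248 in limma. Among all genes, 5.36% had a lower difference. Leaving out 1 array kept the difference between -1.20 and -0.90. The adjusted p was 0.0128 without uap56 replicate 1 and 0.0597 to 0.0970 without each of the others, and 0.156 with a single variance prior.

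The aub signal, for the cytoplasmic Argonaute that cuts transposon transcripts, was 528, 519 and 363 in uap56 and 777, 543 and 633 in vasa. The vasa arrays were all higher, but vasa replicate 2 exceeded uap56 replicate 1 by little. The log2 difference was -0.48 ± 0.20 (SE), with a 95% interval of -0.93 to -0.02 and an adjusted p of 0.257 in limma. On the linear scale that interval puts the uap56 level at 0.524 to 0.988 times that of vasa. The second aub transcript entry followed the first, with values no more than 3.03% apart on any array and a difference of -0.46.

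AGO3 encodes the partner of Aub in the amplification cycle. Its signal was 675, 645 and 516 in uap56 and 735, 824 and 807 in vasa, again without overlap and with every vasa array higher. AGO3 thus had a log2 difference of -0.37 ± 0.16 (SE, 95% interval -0.72 to -0.02, adjusted p = 0.245 in limma). Its 3 transcript entries lay within 4.19% of each other on each array, with differences of -0.40 to -0.37. The unadjusted p was 0.0431 for aub and 0.0387 for AGO3, and 18.2% of all genes had one under 0.05.

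**Figure D1:**
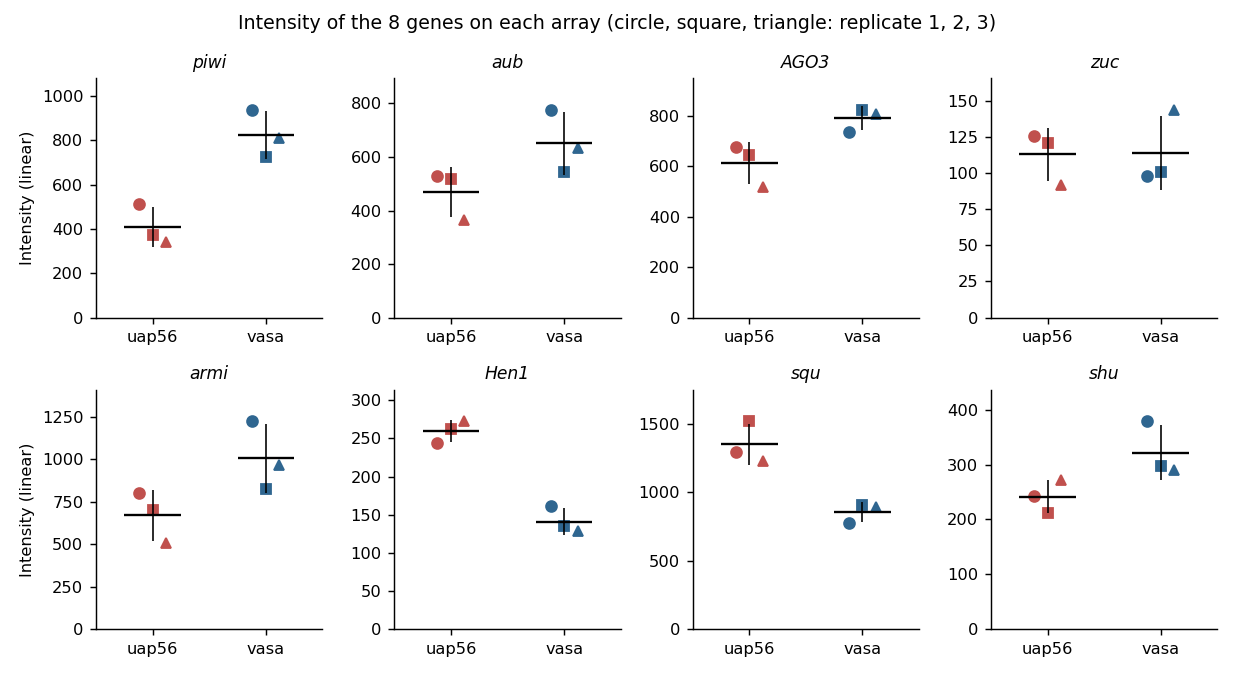
Linear intensity (y axis, from 0 in each panel) of the 8 genes on the uap56 (red) and vasa (blue) arrays; the horizontal line is the mean of 3 arrays and the vertical line the SD. The piwi values lie between 339.9 and 514 in uap56 and between 724 and 939 in vasa, Hen1 and squ lie higher in uap56, and the groups overlap for zuc.

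Whether piwi differed more than the other Argonaute genes was asked with the ratio of their signals on each array. A ratio within an array cancels any factor common to both genes. The ratio of piwi to aub was 0.97, 0.72 and 0.94 in uap56 and 1.21, 1.33 and 1.28 in vasa. That of piwi to AGO3 was 0.76, 0.58 and 0.66 in uap56 and 1.28, 0.88 and 1.00 in vasa. Both ratios were lower on every uap56 array than on any vasa array. They share piwi, so they are not independent, and they were chosen with earlier results of these data known. How often ratios of other gene pairs do not overlap was not computed. Of single genes, 23.5% did not overlap. The log2 ratio differed by -0.55 for aub and by -0.65 for AGO3. The exact two-sided permutation p was 0.1 for each ratio (0.1 after adjustment over 2 comparisons), the smallest that this permutation test can give with 3 arrays against 3, so it cannot reach 0.05. Leaving out 1 array kept these differences between -0.63 and -0.42 for aub and between -0.77 and -0.50 for AGO3.

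**Figure D2:**
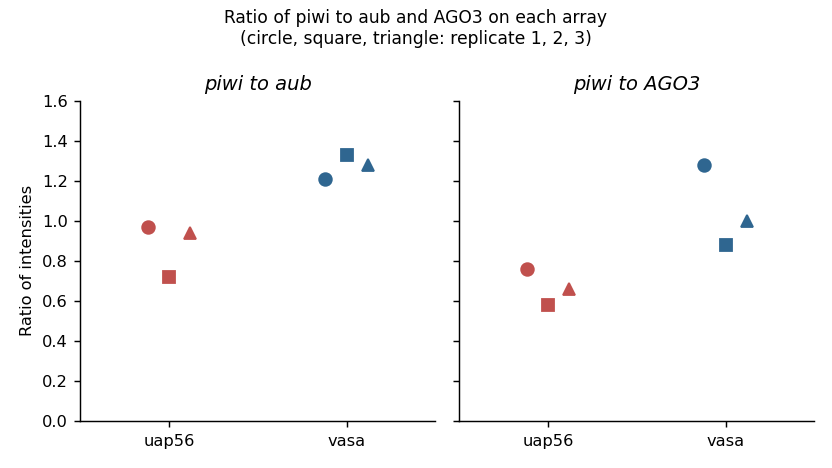
Ratio of the piwi intensity to that of aub (left) and AGO3 (right) on each array (y axis, no unit), uap56 in red and vasa in blue. The ratios to aub lie between 0.72 and 0.97 in uap56 and between 1.21 and 1.33 in vasa, and those to AGO3 between 0.58 and 0.76 against 0.88 and 1.28.

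AGO1 and AGO2, the Argonaute genes of microRNAs and small interfering RNAs, served for comparison. AGO1 stood at 466 ± 59.3 in uap56 and 568 ± 52.3 in vasa (log2 difference -0.29, adjusted p = 0.394 in limma). AGO2 stood at 2812 ± 229 and 3190.1 ± 276 (-0.18, adjusted p = 0.512 in limma). Neither passed, and the AGO2 arrays overlapped. In the list of 8 genes of those pathways, 1 passed in each direction, loqs (0.93) toward uap56 and pasha (-0.79) toward vasa, beside 2.48% and 1.35% of all genes, and each passed in 1 of the 6 fits without 1 array. The loqs product is a double-stranded RNA-binding partner of Dicer, and the pasha product that of Drosha.

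Among the genes of precursor cutting, armi differed most, though it did not pass. The armi signal was 800.1, 704 and 505 in uap56 and 1226, 824 and 964 in vasa. All vasa arrays were higher, but uap56 replicate 1 came close to vasa replicate 2. The log2 difference was -0.59 ± 0.21 (SE, 95% interval -1.07 to -0.12), with an adjusted p of 0.174 in limma. The second armi entry gave the same difference of -0.59, and its values were no more than 1.99% from those of the first. The profile of armi over the arrays resembled that of aub. After each gene was centred on its own mean, the root mean square difference between both profiles was 0.078 on the log2 scale. It was 0.214 for aub and AGO3 and 0.311 for aub and piwi. Pmm2 (0.024) and CG11590 (0.041), in none of the lists here, were nearer to aub than armi was. The share of all genes as near was not computed. Deviations from the group mean were -0.35 (aub) and -0.38 (armi) on uap56 replicate 3, and 0.27 and 0.31 on vasa replicate 1.

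The zuc signal was weak, at 126, 121 and 91.6 in uap56 and 98.2, 101 and 144 in vasa. The groups overlapped and the means were 113 ± 18.5 and 114 ± 25.7 (SD, n = 3 each). The log2 difference of -0.01 had a 95% interval of -0.62 to 0.60 (adjusted p = 0.990 in limma), or 0.651 to 1.52 times the vasa level. Its sign changed to 0.13 without uap56 replicate 3, to 0.17 without vasa replicate 3 and to 0.02 after quantile normalization. In the Release 6 annotation zuc overlaps CG34163, whose signal was 205, 200.1 and 211 in uap56 and 570.1, 389 and 369 in vasa (-1.08, adjusted p = 0.0248 in limma).

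Hen1, the methyltransferase gene, was higher in uap56, with 244, 263 and 273 there and 161, 135 and 128 in vasa. The groups were far apart and the spread within each was small. The means were 259.9 ± 14.4 and 141 ± 17.1 (SD, n = 3 each), a 1.85-fold difference. On the log2 scale Hen1 differed by 0.88 ± 0.20 (SE, 95% interval 0.44 to 1.32, adjusted p = 0.0414 in limma). It kept its sign without each array in turn (0.82 to 0.98), but the adjusted p then ran from 0.0541 to 0.162. The product of Hen1 also methylates the small interfering RNAs in AGO2, so its role reaches beyond piRNAs.

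The nuage protein gene squ, whose product binds Aub, was the third that passed. Its signal was 1298, 1523 and 1231 in uap56 and 774, 904 and 892 in vasa, with every uap56 array higher. The means were 1351 ± 153 and 857 ± 71.9 (SD, n = 3 each), a 1.57-fold difference. On the log2 scale squ differed by 0.65 ± 0.14 (SE, 95% interval 0.33 to 0.98, adjusted p = 0.0416 in limma). Without 1 array it was 0.56 to 0.72, with an adjusted p of 0.0658 to 0.146. In the Release 6 annotation squ lies inside grp, a checkpoint kinase gene, which read 2969, 3016 and 2211 in uap56 and 1409, 1958 and 1902 in vasa (0.64, adjusted p = 0.0871 in limma). The array target was double-stranded DNA, which does not keep the strand, and the part of grp signal in the squ value was not tested.

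Shu, an FKBP-family co-chaperone, helps load piRNAs into all 3 PIWI proteins. The shu signal was 243, 211 and 272 in uap56 and 380.1, 297 and 289.7 in vasa. The vasa arrays were higher without overlap, though uap56 replicate 3 lay near the lower 2 of them. This gave a log2 difference of -0.41 ± 0.19 (SE, 95% interval -0.84 to 0.02, adjusted p = 0.304 in limma).

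**Figure D3:**
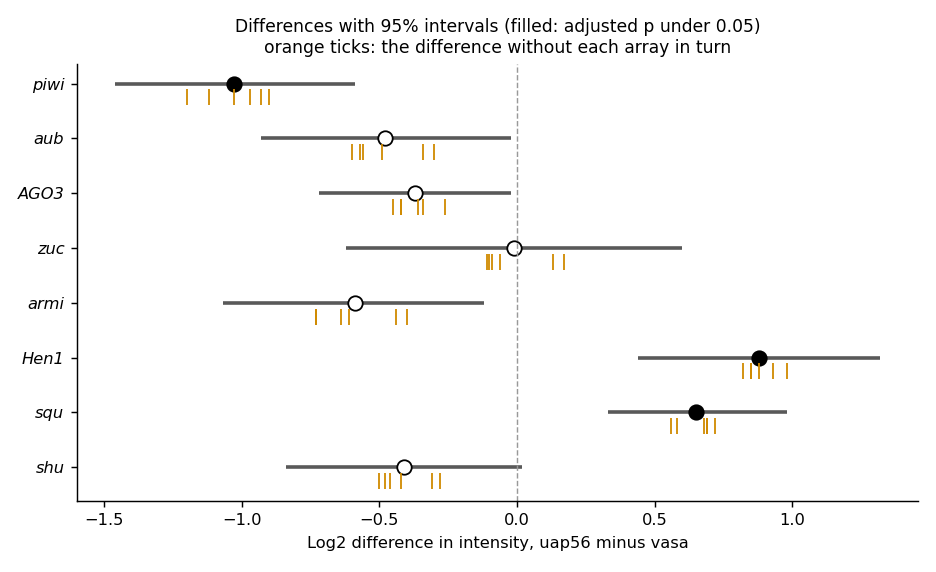
Log2 difference in intensity, uap56 minus vasa (x axis), for the 8 genes, with the 95% interval of the limma fit as a line; filled points passed an adjusted p of 0.05 and orange ticks give the difference without each array in turn. Of the 8, zuc is the gene whose ticks lie on both sides of 0, and the interval of shu also reaches past 0.

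The 6 genes with a difference below 0 and the 2 above it gave a median of -0.39, and the median of all genes was 0.02. Over all genes, 48.6% had a difference below 0. The arrays did not contribute alike. In uap56, replicate 3 gave the lowest value for 6 of the 8 genes (all but Hen1 and shu), and for 35 of 40 other genes of the pathway. It was also the lowest of its group for 45.6% of all genes and 59.8% of those above the median intensity. Its deviation from the group mean was -0.38 for armi, -0.35 for aub and -0.24 for piwi, beside a median of -0.08 over all genes. Replicate 1 was the highest of its group for 5 of the 8 genes in uap56 and for 5 in vasa. The share of all genes highest on these arrays was not computed. Centring each array on its median left the 3 calls in place. It shifts the differences of all genes by the same amount, here no more than 0.005. It therefore cannot address an array that is low for some genes only. Quantile normalization also left the 3 calls in place. It gave -0.42 for AGO3, -0.63 for armi and 0.61 for squ, beside -0.37, -0.59 and 0.65 in the main fit.

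Signals of the genes that overlap the others were compared too, since the probes behind each transcript are not stated. SCAR, which overlaps piwi, stood at 906 ± 116 in uap56 and 854 ± 64.2 in vasa (0.08, adjusted p = 0.838 in limma), and its arrays overlapped. TTLL4A, which overlaps aub, had -0.13 (adjusted p = 0.717). The gene bsd, within the span of Hen1, had 0.25 (adjusted p = 0.629), with overlapping arrays. The overlapping genes CG46463 (armi) and CG46398 (shu) have no value here. Beside piwi lie ATPsynG (0.89, adjusted p = 0.0619) and CG12253 (0.70, adjusted p = 0.0994), both with the opposite sign to piwi. CG12253 also lies beside aub, as does lectin-33A (-0.79). Next to armi are eIF5B (-0.54) and CycJ (0.08), and next to squ her (0.37) and CG31807 (-0.13). Hen1 has OSCP1 (-0.69) and CG8407 (-0.41), zuc CG6686 (-0.01) and dgt2 (0.74), AGO3 ND-MLRQ (0.29) and shu Snap29 (0.48). Of these, eIF5B and her had the sign of armi and squ, without overlapping arrays. None of these adjacent genes passed in limma. Their part in the 8 signals was not tested.

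The genes most like each Argonaute gene over the 6 arrays were sought among 6845 genes above the median intensity, by the root mean square difference of centred log2 profiles. For piwi they were CG7737 (0.057) and janA (0.070), for aub Pmm2 (0.024) and CG11590 (0.041), and for AGO3 Invadolysin (0.038) and HERC2 (0.045). The log2 difference between groups was -1.07 for CG7737 and -0.93 for janA. The matched profiles hold that difference, so its nearness to that of piwi follows from the search.

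The 40 other genes of the pathway, in 4 lists, gave 4 higher in vasa and 1 higher in uap56. Over all genes the shares were 1.35% and 2.48%. Their median difference was -0.27. The arrays did not overlap for 20 of the 40, with 16 of them higher in vasa, beside 23.5% of all genes without overlap, and 33.5% (12.8% higher in vasa) of those above the median intensity.

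In the list of cluster transcription and precursor export, 1 of 12 genes was higher in vasa and 1 in uap56, beside 1.35% and 2.48% of all genes. Of the 12, 8 had an unadjusted p under 0.05, as did 18.2% of all genes. Boot, which acts with Nxf3 in precursor export, was 312, 195 and 147 in uap56 and 533, 829 and 738 in vasa, with a log2 difference of -1.73 (adjusted p = 0.0148 in limma). It passed in 3 of the 6 fits without 1 array (adjusted p up to 0.0684). The transcription factor gene moon was 693, 687 and 836 in uap56 and 325, 199 and 241 in vasa (1.56, adjusted p = 0.00785), and it passed without each of the 6 arrays in turn. Nxf3 (-1.14, adjusted p = 0.0694), cuff (-1.01, adjusted p = 0.0792) and the THO complex gene thoc5 (0.52, adjusted p = 0.0994) did not pass.

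Of 12 nuage and Yb body genes, 2 were higher in vasa and 0 in uap56 by limma, beside 1.35% and 2.48% of all genes. Among these 12, 5 had an unadjusted p under 0.05 (18.2% of all genes). BoYb read 152, 109 and 54.4 in uap56 and 327, 329 and 319 in vasa (-1.75, adjusted p = 0.0286), and SoYb 197, 155 and 104 against 307, 344 and 311 (-1.12, adjusted p = 0.0417). Both encode Tudor-domain helicases related to Yb. BoYb passed in 2 and SoYb in 1 of the 6 fits without 1 array, with an adjusted p of up to 0.0966 and 0.147. These values were lowest on uap56 replicate 3. The Tudor gene tej (0.84, adjusted p = 0.0535), mael (-0.52, adjusted p = 0.0878) and krimp (-0.68, adjusted p = 0.240) did not pass.

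Of 8 genes of the mitochondrial surface, arginine methylation and chaperones, 1 passed, Stip1, toward vasa, beside 1.35% of all genes. Stip1, the gene of a co-chaperone that works with Hsp83, was 2495, 2418 and 2043 in uap56 and 3827, 3286 and 3392 in vasa (-0.60, adjusted p = 0.0417 in limma). It passed in 0 of the 6 fits without 1 array (adjusted p of 0.0558 to 0.133). Hsp83 itself (-0.23, adjusted p = 0.390), vls (-0.36, adjusted p = 0.332) and Gasz (-0.41, adjusted p = 0.462) did not pass. Of 8 nuclear silencing genes, which act with or after Piwi, 0 passed by limma, beside 3.83% of all genes. Among them 1 had an unadjusted p under 0.05 (18.2% of all genes). Panx, which links Piwi to the silencing machinery, had -0.66 (adjusted p = 0.174), wde -0.39 (adjusted p = 0.281) and egg 0.40 (adjusted p = 0.375).

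**Figure D4:**
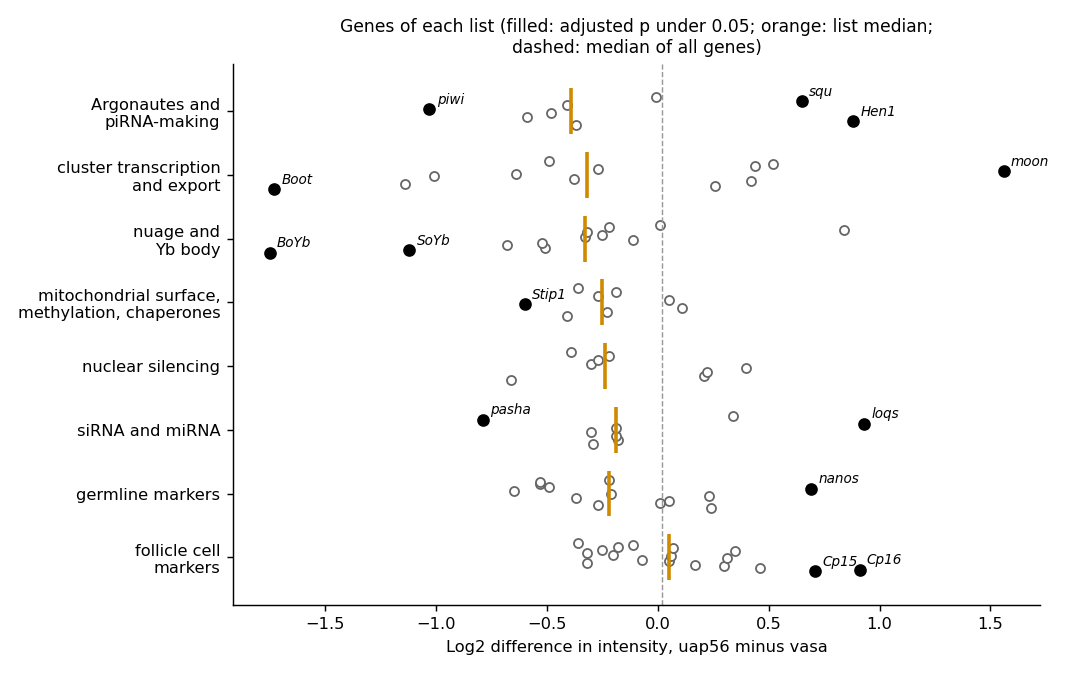
Log2 difference in intensity, uap56 minus vasa (x axis), for each gene of 8 lists (rows); filled and named genes passed an adjusted p of 0.05, orange bars are list medians and the dashed line is the median of all genes (0.02). The medians are -0.39 for the Argonaute and piRNA-making genes, -0.22 for germline markers and 0.05 for follicle cell markers.

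Aub and AGO3 are made in the germline and Piwi in germline and follicle cells, so cell markers were read beside these values. In bulk RNA, fewer cells of a type and less RNA per cell cannot be told apart. Of 13 germline genes, nanos (0.69) alone passed, toward uap56, beside 2.48% of all genes, and in 2 of the 6 fits without 1 array. The germline list had a median of -0.22 with 8 below 0. Its summed intensity was 15208 to 18389 in uap56 and 16581 to 19401 in vasa. Its differences ran from -0.65 (grk) to 0.69 (nanos). Below 0 were also osk and otu (-0.53 each), orb (-0.49), cup (-0.37), bam (-0.27), pum (-0.22) and gcl (-0.21), and above it bcd (0.01), bgcn (0.05), egl (0.23) and BicD (0.24). The follicle cell list of 18 genes had a median of 0.05, with 10 above 0 and 8 below. The chorion genes Cp15 (0.71) and Cp16 (0.91) passed, toward uap56, beside 2.48% of all genes, and each in 2 of the 6 fits. Below 0 were tj (-0.36), Fas3 and Yp2 (-0.32 each), br (-0.25), Yp1 (-0.20), peb (-0.18), slbo (-0.11) and Vm26Ab (-0.07). The summed intensity of this list was 150621 to 186689 in uap56 and 132316 to 148509.8 in vasa. In that sum a chorion gene such as Cp38 (mean 19426 in uap56) weighs far more than tj (775). No gene of either list stood at the floor, but the floor was not shown to be a detection limit. The means of grk (68.3 in uap56, 107 in vasa), bgcn (46.5 and 45.5) and slbo (82.7 and 87.9) lay below every array median (162.6 to 183.6). The part of either list in the differences of the 8 genes was not tested. Defining ovary genes were present in all samples, with osk at 2899.6 ± 342 in uap56 and 4234 ± 873 in vasa.

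Markers of other tissues did not pass in either direction by limma, in lists for muscle (7 genes), gut (6), fat body (7), neurons (5), hemocytes (5), testis (8) and spermatheca (2). Of these 40 genes, 0 passed, beside 3.83% of all genes, and 3 had an unadjusted p under 0.05, beside 18.2%. Summed muscle signal was 5441 to 8483 in uap56 and 5157 to 7654 in vasa, and testis markers summed to at most 309.8 on any array.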

How the data were processed

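Ovary RNA of both groups (3 arrays each) was measured on Affymetrix tiling arrays. The authors deposited 1 table per array of linear intensity per RefSeq transcript, summarised and normalized, per the labels. The sources used here do not give the normalization, probes, software or genome build. For arrays no depth applies, and their number limits the precision. The transposon tables were not used.

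Of 21158 entries, 393 at 0 on every array were left out. Entries were named by RefSeq accession (19234), by name (1314) or kept as in the file (610), using a Release 6 gene table for names and gene order only. Each of 13690 genes was read from its transcript of highest mean intensity. Log2 intensities were compared with limma 3.58.1 in R 4.3.3 (lmFit, eBayes with intensity trend and robust option, two-sided, Benjamini-Hochberg over all genes, threshold 0.05). The fit was run on simulated data whose spread followed intensity alone, as the trend assumes, so that run cannot judge the trend. Intervals are at 95%. The labels do not say whether replicate numbers pair the arrays, and the main fit used no pairing. Deviations of same-numbered arrays correlated at 0, -0.001 and -0.028. The genes, lists, fit and alternatives were chosen with earlier results of these data known. Named are the 8 genes, the targeted genes, AGO1 and AGO2, list genes past the threshold with up to 3 further ones of smallest p, the 2 most alike profiles, and overlapping or adjacent genes; markers and loqs and pasha were named after their values were seen. Not every gene the rule picks is given.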

Additional observations from a re-analysis of the deposited data

How the results depend on the processing

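For piwi, Hen1 and squ the direction held in all 15 alternatives each, and the call was lost in 7 for piwi and in 9 each for Hen1 and squ. The 3 of 8 calls became 0 with a single variance prior or a variance per gene, and 1 (piwi) with a replicate block, whose adjusted p was 0.0355 for piwi, 0.103 for Hen1 and 0.0980 for squ. Leaving out 1 array gave 0 to 1 calls among the 8. The aub, AGO3, armi and shu differences stayed below 0 and did not pass in any alternative. For zuc, near 0, the sign changed to 0.02 after quantile normalization, 0.13 without uap56 replicate 3 and 0.17 without vasa replicate 3, and the fits without 1 array gave -0.11 to 0.17. Over all genes the count of 525 became 2 with a single variance prior, 3 with a variance per gene, 226 with the replicate block and 1056 of 20765 with every transcript entry tested, and it was 70 to 509 without 1 array (70 for uap56 replicate 2, 202 for uap56 replicate 3, 88 for vasa replicate 2 and 90 for vasa replicate 3). Of the 40 other pathway genes, 5 passed, against 0 with a single variance prior or a variance per gene, 8 after quantile normalization or median centring, 3 with the replicate block, and 1 to 6 without 1 array (1 for uap56 replicate 2, vasa replicate 2 or vasa replicate 3, 2 for vasa replicate 1 and 3 for uap56 replicate 3). The cause of these changes was not tested. The piwi ratios to aub and AGO3 kept their sign in every alternative run.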
